A study of Mus musculus with 9 samples.

Results

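The TNF ligand and TNF receptor superfamilies were read in RAW264.7 cells, a macrophage-like line from mouse, labelled wild type. The table lines taken were those whose symbol starts with Tnfsf or Tnfrsf, together with Cd40, Cd40lg, Fas, Fasl, Lta, Ltb, Ltbr, Cd27, Cd70 and Ngfr. Tnf, Tnfrsf11a and antisense or pseudogene names were left out. This gave 41 genes, 17 ligands and 24 receptors, of the 53170 named genes in the table. Polyadenylated RNA was sequenced from 9 libraries in 3 groups of 3. In the BMC+LIPUS group the cells grew on a membrane labelled BMC, a piezoelectric one by the series title, and received low-intensity pulsed ultrasound. In the BMC group they grew on the membrane alone, and the control group was labelled a blank control. All groups shared the cell line and a serum-containing αMEM medium. The labels do not say what BMC stands for, how long the cells were exposed, or whether a group's libraries are separate cultures. The p-values therefore measure only the spread between these libraries, which may be technical.

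Ligands of the superfamily are mostly membrane proteins that act as trimers, on the cell surface or after cleavage, and they bind receptors with cysteine-rich repeats outside the cell. Receptors with a death domain, such as Tnfrsf1a and Fas, can recruit caspases or kinase complexes. The other signalling receptors bind TRAF adaptors and feed the NF-kB pathways, while decoy receptors bind ligand without a full signalling tail. Macrophages are a major source and target of TNF, and in other immune cells family members pass costimulatory and survival signals.

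Libraries held 12675417 to 16574322 counts. Of the 10 macrophage markers listed, 9 were above the expression filter and Cd163 had 0 counts in every library. Of 6 dendritic cell markers, Siglech and Cd83 were above the filter and Flt3 and Ccr7 were at 0, and the list summed to 35.5 to 35.9 FPKM in BMC+LIPUS, 31.1 to 33.5 FPKM in BMC and 11.95 to 15.3 FPKM in control. Cd83 alone made up nearly all of that sum (means of 35.1, 31.4 and 12.8 FPKM in BMC+LIPUS, BMC and control), while Siglech averaged 0.417, 0.373 and 0.800 FPKM in the same order, and Zbtb46 and Xcr1 were not higher in either membrane group than in control. Of 9 stromal markers only Pdgfrb was above the filter, and the list summed to 1.78 to 1.80 FPKM in BMC+LIPUS, 1.44 to 1.72 FPKM in BMC and 0.80 to 1.01 FPKM in control. Of 6 epithelial and endothelial markers 0 were above it. The part of these markers in the results below was not tested. The filter was a mean of at least 0.5 FPKM (the authors' fragment count scaled by gene length and library depth) over the 9 libraries. It left 12012 genes, and 14 of the 41 family members passed it, 3 ligands and 11 receptors. The threshold for a call was an adjusted p of 0.05 in edgeR's quasi-likelihood test with Benjamini-Hochberg adjustment over all 12012 genes, and every adjusted p below comes from that test unless another is named. Fold changes are fitted values.

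On the membrane, the CD137 ligand gene Tnfsf9 and the TNF receptor gene Tnfrsf1a rose, and the other TNF receptor gene, Tnfrsf1b, fell. These were the 3 calls among the 14 tested members in BMC against control, 2 higher and 1 lower, and 11 were not called. Over all genes 35.9% were called in that comparison, 17.2% higher and 18.8% lower, against 21.4% of the 14 members, a difference that was not tested. With ultrasound on the membrane, Tnfsf9, Tnfrsf1a, Tnfrsf23 and Tnfrsf26 were called higher than control and Tnfrsf1b lower. That made 4 higher and 1 lower of 14, or 35.7%, where 43.0% of all genes were called, 21.1% higher and 21.9% lower. Adding ultrasound to the membrane gave 0 calls among the 14 by edgeR, where 0.0916% of all genes were called higher and 0.0167% lower. The comparisons of BMC and of BMC+LIPUS with control share the control libraries.

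**Figure D1:**
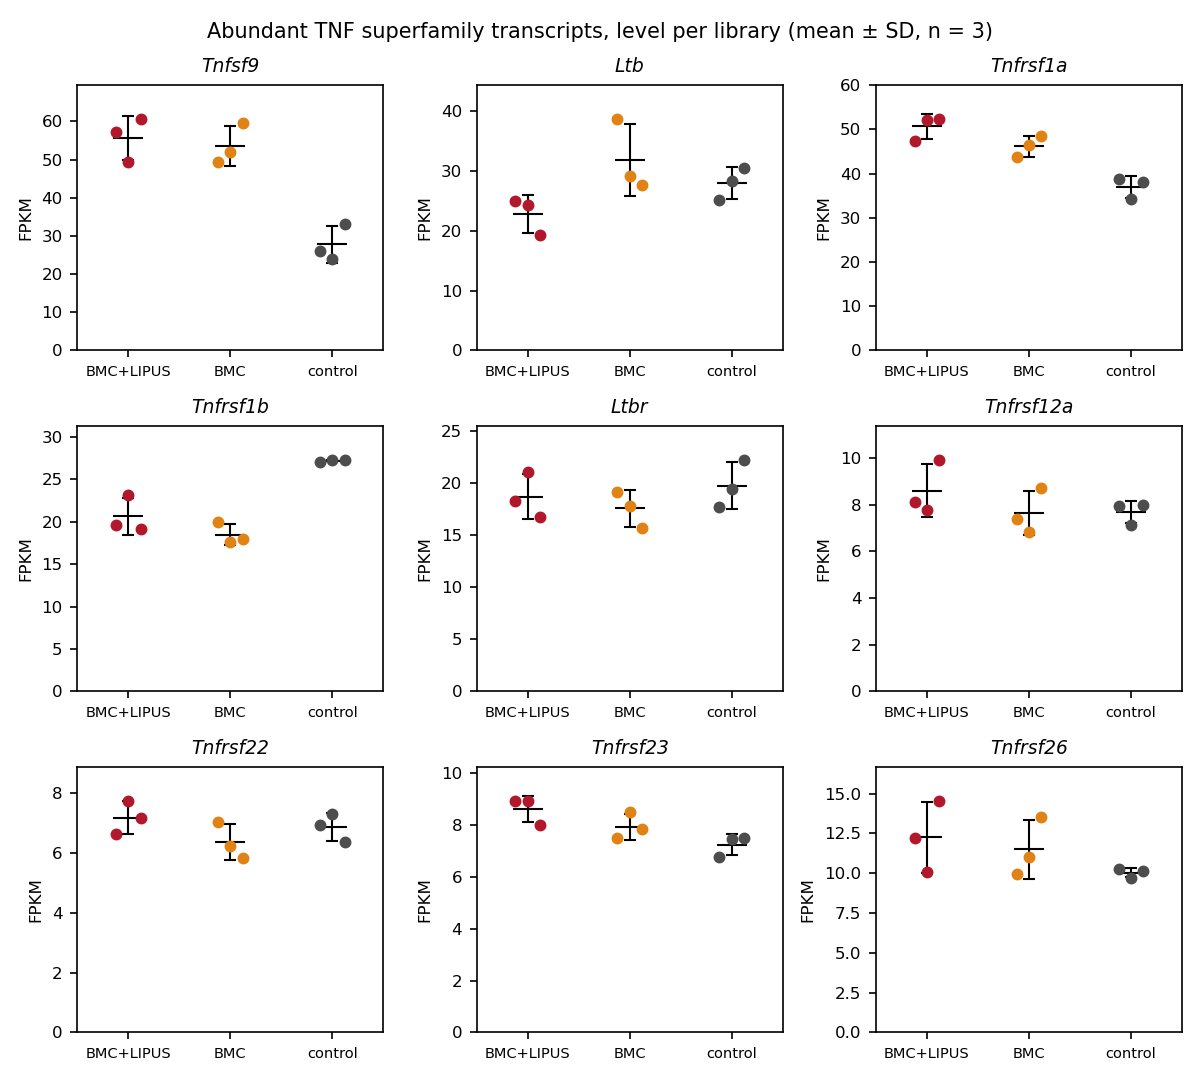
Levels of the 9 family members with a mean above 5 FPKM, one panel per gene, with FPKM from 0 on the vertical axis and the BMC+LIPUS, BMC and control libraries along the horizontal axis. Points are single libraries and bars are the mean ± SD (n = 3); Tnfsf9 and Tnfrsf1a stand higher and Tnfrsf1b lower in both membrane groups than in control, without overlap.

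Among the ligands, Tnfsf9 had the highest level in both membrane groups. It encodes the ligand of CD137, which costimulates T cells and in macrophages can also signal back into the cell that carries it. Its level was 57.13, 49.43 and 60.57 FPKM in the BMC+LIPUS libraries, 49.31, 51.91 and 59.45 FPKM in the BMC libraries, and 26.13, 24.06 and 33.20 FPKM in the controls. Each membrane library was above each control library, and the groups with and without ultrasound overlapped. Tnfsf9 rose 2.02-fold in BMC against control (log2 change 1.01, SE 0.117, adjusted p = 6.28e-06) and 2.11-fold in BMC+LIPUS against control (log2 change 1.08, SE 0.117, adjusted p = 2.22e-06). Between BMC+LIPUS and BMC the fitted ratio was 1.05, with a 95% interval of 0.887 to 1.24 (adjusted p = 0.871). In a bulk sample a change in the number of cells that carry a transcript and a change in RNA per cell cannot be told apart.

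Its receptor, Tnfrsf9 (CD137 itself), which is induced on activated lymphocytes and some myeloid cells, was rare but followed the same split. It had 9, 21 and 9 counts in the BMC+LIPUS libraries, 10, 6 and 4 counts in the BMC libraries and 0 in each control. Against a floor of 3 counts over the control group, or 0.0673 CPM, the pooled level of 0.936 CPM in BMC+LIPUS was 13.9-fold higher. That of 0.482 CPM in BMC was 7.16-fold higher than the same floor. The floor covers counting error in the control only, and the membrane counts were taken as observed. Tnfrsf9 lay under the expression filter. It passed a filter lowered to 0.1 FPKM, a setting chosen after seeing the data that tested 15324 genes, only through the membrane libraries, so its difference from control is given as counts and not as a test. Between BMC+LIPUS and BMC it was not called at that filter (adjusted p = 0.594).

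The second abundant ligand was Ltb, lymphotoxin beta, which with lymphotoxin alpha forms the ligand of Ltbr. It stood at 25.06, 24.38 and 19.26 FPKM in BMC+LIPUS, at 38.70, 29.22 and 27.68 FPKM in BMC and at 25.19, 28.43 and 30.56 FPKM in control. Each BMC+LIPUS library was below each BMC library, and BMC and control overlapped. The BMC+LIPUS and control libraries nearly met, at 25.06 and 25.19 FPKM, and Ltb was not called between these groups (log2 change -0.22, SE 0.120, adjusted p = 0.149) in any of the 20 alternatives. Ltb had the smallest p of the 14 members in the ultrasound comparison (log2 change -0.47, SE 0.120, 95% interval -0.72 to -0.22, unadjusted p = 0.00121), but it was not called (adjusted p = 0.159). DESeq2 called it on the same counts (adjusted p = 0.0267), and the adjusted p ran from 0.000116 to 0.51 over the 20 alternatives tried. In BMC against control its log2 change was 0.25 (SE 0.118, adjusted p = 0.116), with 0.09 without BMC replicate 1 (adjusted p = 0.543) and 0.33 without BMC replicate 3 (adjusted p = 0.0479).

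Lta, lymphotoxin alpha, had 11, 20 and 9 counts in all BMC+LIPUS, BMC and control libraries together, so the partner of Ltb was close to the detection limit. Ltbr, the receptor of the lymphotoxin heterotrimer and of Tnfsf14, was at 18.7 ± 2.16 FPKM in BMC+LIPUS, 17.6 ± 1.74 FPKM in BMC and 19.8 ± 2.29 FPKM in control (SD, n = 3 each). It was called in no comparison, and its 95% interval for BMC against control was -0.32 to 0.10 on the log2 scale (adjusted p = 0.434). The third ligand above the filter, Tnfsf12 (TWEAK), averaged 0.463, 0.543 and 0.653 FPKM in BMC+LIPUS, BMC and control and was not called. Tnfsf12 and Tnfsf13 each overlap Tnfsf13os and the read-through gene Tnfsfm13 in the RefSeq annotation, so the counts of these genes are uncertain. Tnfsf9 overlaps Gm11110, Tnfrsf12a overlaps Hcfc1r1, Tnfrsf13b overlaps Usp22, Tnfrsf4 overlaps Sdf4 and Tnfrsf23 overlaps E230032D23Rik in the same annotation. The library kit keeps strand, but whether the counting used it is not stated in the labels or files.

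The receptors for TNF itself moved in opposite directions. Tnfrsf1a, the death domain receptor that most cells carry, was at 47.44, 52.20 and 52.30 FPKM in BMC+LIPUS, at 43.69, 46.56 and 48.41 FPKM in BMC, and at 38.81, 34.22 and 38.13 FPKM in control. Every membrane library was above every control. Tnfrsf1a rose 1.30-fold in BMC against control (log2 change 0.38, SE 0.071, adjusted p = 0.000539) and 1.44-fold in BMC+LIPUS against control (log2 change 0.52, SE 0.071, adjusted p = 2.16e-05). Between BMC+LIPUS and BMC its log2 change was 0.14, with a 95% interval of -0.01 to 0.29 (adjusted p = 0.474).

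Tnfrsf1b, the TRAF-binding TNF receptor of immune and endothelial cells, was at 19.59, 23.18 and 19.15 FPKM in BMC+LIPUS, at 19.95, 17.59 and 17.91 FPKM in BMC, and at 27.09, 27.25 and 27.25 FPKM in control. Every membrane library was below every control. It was 1.41-fold lower in BMC than in control (log2 change -0.49, SE 0.072, adjusted p = 6.5e-05) and 1.26-fold lower in BMC+LIPUS than in control (log2 change -0.33, SE 0.072, adjusted p = 0.00146). Between BMC+LIPUS and BMC its log2 change was 0.16 (95% interval 0.01 to 0.32, unadjusted p = 0.0394, adjusted p = 0.414).

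The ratio of Tnfrsf1a to Tnfrsf1b within a library does not depend on how libraries are scaled to each other. It was 2.42, 2.25 and 2.73 in BMC+LIPUS, 2.19, 2.65 and 2.70 in BMC, and 1.43, 1.26 and 1.40 in control. The mean was 2.47 ± 0.243 in BMC+LIPUS, 2.51 ± 0.281 in BMC and 1.36 ± 0.094 in control (SD, n = 3 each). The ratio was higher in 3 of 3 libraries of each membrane group than in any control, for which a two-sided exact permutation test gives p = 0.1, the smallest that 3 libraries against 3 allow. For BMC+LIPUS against BMC the exact permutation p was 1.0. This ratio was chosen after the values were seen.

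**Figure D2:**
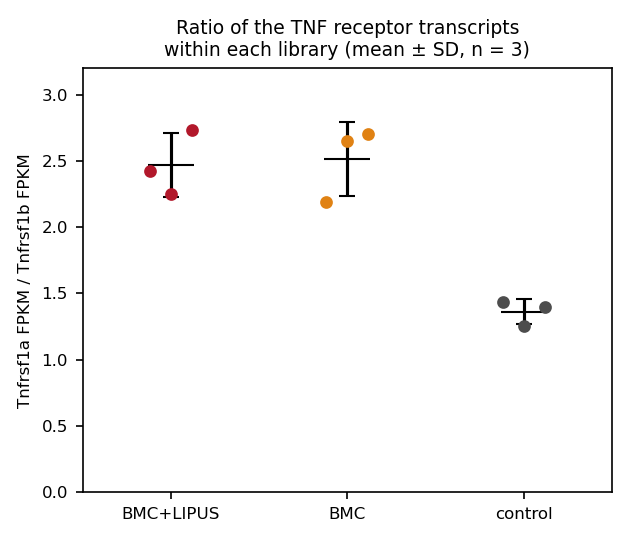
Ratio of Tnfrsf1a to Tnfrsf1b FPKM within each library on the vertical axis, for the BMC+LIPUS, BMC and control groups along the horizontal axis. Points are libraries and bars the mean ± SD (n = 3); the 6 membrane libraries lie between 2.19 and 2.73 and the 3 controls between 1.26 and 1.43.

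Promoter windows of 4 receptors are shown because the first 2 moved in opposite directions and the other 2 are low receptors described here. Apart from Tnfrsf1a they were chosen after the values were seen. Where a gene had windows with a kappaB match, the first of these was printed, so a kappaB match in it follows from that choice. Each window runs from 250 bases before to 50 bases after an annotated start of the gene, on the gene's own strand. The windows come from RefSeq on build GRCm38.p6, which is not the build of the counts (GRCm39). They are chr6:125349473-125349772 (plus strand) for Tnfrsf1a, chr4:145246821-145247120 (minus strand) for Tnfrsf1b, chr4:150927749-150928048 (plus strand) for Tnfrsf9 and chr4:145315115-145315414 (minus strand) for Tnfrsf8. Capitals mark matches on either strand to the kappaB consensus of NF-kB, to the AP-1 motif TGANTCA or to the GC box GGGCGG.
Tnfrsf1a: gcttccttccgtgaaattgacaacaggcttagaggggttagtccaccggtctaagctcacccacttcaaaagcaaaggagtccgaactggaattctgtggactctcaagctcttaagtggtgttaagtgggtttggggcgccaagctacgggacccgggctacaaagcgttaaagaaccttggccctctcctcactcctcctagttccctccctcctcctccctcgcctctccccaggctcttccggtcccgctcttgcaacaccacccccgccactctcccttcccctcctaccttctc
Tnfrsf1b: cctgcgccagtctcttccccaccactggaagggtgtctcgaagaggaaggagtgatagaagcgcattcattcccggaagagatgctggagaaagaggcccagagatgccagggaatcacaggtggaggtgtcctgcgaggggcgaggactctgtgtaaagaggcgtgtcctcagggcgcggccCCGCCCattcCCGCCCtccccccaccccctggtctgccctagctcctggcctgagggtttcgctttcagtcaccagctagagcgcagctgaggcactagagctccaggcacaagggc
Tnfrsf9: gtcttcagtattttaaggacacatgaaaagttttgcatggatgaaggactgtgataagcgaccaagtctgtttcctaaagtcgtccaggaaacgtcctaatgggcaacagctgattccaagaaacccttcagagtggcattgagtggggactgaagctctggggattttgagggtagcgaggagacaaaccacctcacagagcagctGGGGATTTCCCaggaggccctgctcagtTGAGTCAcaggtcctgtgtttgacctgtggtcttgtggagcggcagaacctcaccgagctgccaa
Tnfrsf8: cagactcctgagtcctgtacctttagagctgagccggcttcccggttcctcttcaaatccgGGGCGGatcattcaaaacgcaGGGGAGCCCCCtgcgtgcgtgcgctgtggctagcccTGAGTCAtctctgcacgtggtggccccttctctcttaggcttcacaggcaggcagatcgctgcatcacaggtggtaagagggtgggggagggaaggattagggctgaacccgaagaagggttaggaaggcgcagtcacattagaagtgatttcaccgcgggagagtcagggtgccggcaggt

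The Tnfrsf1a window held none of the 3 motifs, and the Tnfrsf1b window held 2 GC boxes, which start 67 and 57 bases before the gene's start. The printed Tnfrsf9 window held 2 overlapping kappaB matches, the first of them 43 bases before the start, and an AP-1 match 15 bases before it. Another Tnfrsf9 window was not printed, since a GC box was found among its windows and the printed one held 0. The Tnfrsf8 window also held 2 overlapping kappaB matches, the first at 168 bases before the start, with an AP-1 match at 132 and a GC box at 189 bases before it. Of the 31 members with a promoter in the table, counting every window a gene had, 4 (12.9%) had a kappaB match, namely Ltb, Tnfrsf25, Tnfrsf8 and Tnfrsf9, where 9.55% of all 27025 genes had one. An AP-1 match was found in 6 of 31 (19.4%) against 8.97% of all genes, and a GC box in 16 of 31 (51.6%) against 38.2%. Such matches describe the sequence and are not binding sites shown by these data.

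Tnfrsf8, or CD30, a TRAF-binding receptor of activated lymphocytes, had a mean of 0.49 FPKM, just under the filter, while Fas and Tnfrsf4, at 0.501 FPKM each, were just above it. It had 12, 12 and 10 counts in BMC+LIPUS, 31, 15 and 4 counts in BMC, and 47, 42 and 47 counts in control. All membrane libraries were below all controls. With the filter at 0.1 FPKM it was 3.56-fold lower in BMC+LIPUS than in control (log2 change -1.83, SE 0.410, adjusted p = 0.00141) and 2.45-fold lower in BMC than in control (log2 change -1.29, SE 0.384, adjusted p = 0.0147). The BMC value leaned on single libraries: its log2 change ran from -2.08 without BMC replicate 1 to -0.88 without BMC replicate 3, and the call was lost without BMC replicate 2 (adjusted p = 0.0625), without BMC replicate 3 (adjusted p = 0.0598) and without control replicate 3 (adjusted p = 0.0597).

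**Figure D3:**
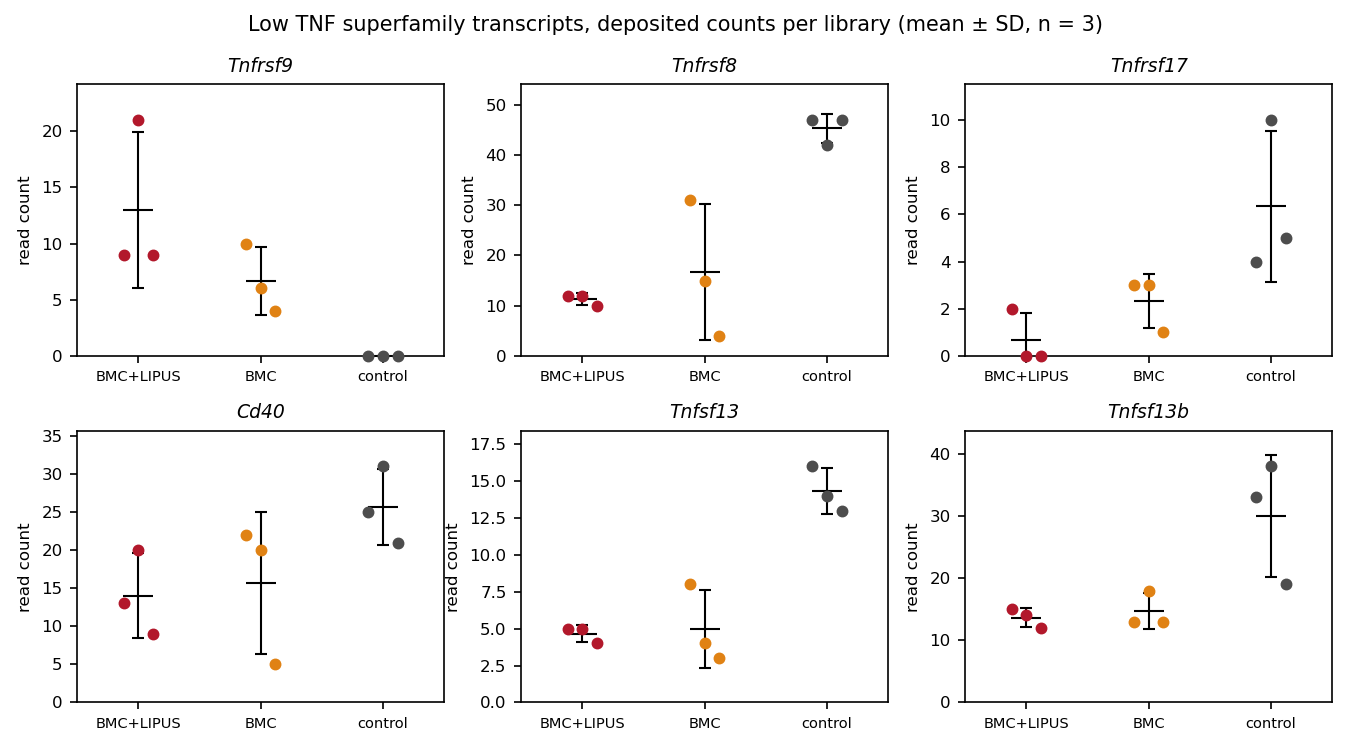
Deposited read counts per library, from 0 on the vertical axis, of 6 family members under the expression filter, with the BMC+LIPUS, BMC and control groups along the horizontal axis. Points are libraries and bars the mean ± SD (n = 3); Tnfrsf9 is at 0 in the 3 controls, while Tnfrsf8 and Tnfsf13 are lower in every membrane library than in every control.

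The B cell survival axis was low throughout. Its ligands are Tnfsf13b (BAFF) and Tnfsf13 (APRIL), and its receptors are Tnfrsf13b (TACI), Tnfrsf13c (BAFF receptor) and Tnfrsf17 (BCMA). Tnfsf13b had 15, 14 and 12 counts in BMC+LIPUS, 13, 18 and 13 in BMC, and 33, 38 and 19 in control. Tnfsf13 had 5, 5 and 4 counts in BMC+LIPUS, 8, 4 and 3 in BMC, and 16, 14 and 13 in control, and each membrane library held fewer counts of either ligand than each control.

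With the filter at 0.1 FPKM, Tnfsf13b and Tnfsf13 were called lower in BMC+LIPUS against control, with log2 changes of -0.95 (SE 0.331, adjusted p = 0.0298) and -1.43 (SE 0.509, adjusted p = 0.0337), while the BMC group gave adjusted p = 0.0572 and 0.0521 against control, without a call. The BMC+LIPUS calls were fragile, since DESeq2 gave adjusted p = 0.0679 for Tnfsf13b and 0.0761 for Tnfsf13, and leaving out single libraries gave up to 0.112 and 0.104. The Tnfsf13b call was lost without control replicate 1 or 2 and without BMC+LIPUS replicate 1 or 3, and the Tnfsf13 call without any single control or BMC+LIPUS library. Tnfrsf17 had 2, 0 and 0 counts in BMC+LIPUS, 3, 3 and 1 in BMC and 4, 10 and 5 in control, and was called lower in BMC+LIPUS against control at this filter (adjusted p = 0.0277). That call was lost without control replicate 2 (adjusted p = 0.117), without BMC+LIPUS replicate 2 (adjusted p = 0.0888) and without BMC+LIPUS replicate 3 (adjusted p = 0.103).

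Tnfrsf13b, which passed the filter, stood at 0.35, 0.53 and 0.39 FPKM in BMC+LIPUS, 0.91, 0.43 and 0.36 FPKM in BMC, and 0.89, 0.74 and 0.51 FPKM in control, with overlap between all groups and no call (adjusted p = 0.127 for BMC+LIPUS against control). It averaged 0.423, 0.567 and 0.713 FPKM in the same order. The BMC+LIPUS mean lay under the 0.5 FPKM filter, and the controls, where the mean was highest, helped it pass. Its differences from control are therefore a description. Tnfrsf13c had 4, 19 and 4 counts in BMC+LIPUS, BMC and control. It averaged 0.050, 0.227 and 0.047 FPKM in the same order, so it passed the 0.1 FPKM filter only through the BMC libraries, where it was highest. Its comparisons are therefore a description. At that filter it gave no call in BMC against control (adjusted p = 0.0631) or in BMC+LIPUS against BMC (adjusted p = 0.424). Among the B cell markers listed, Ighm was above the filter, and Cd79b and Ms4a1 had 0 counts in all libraries. The markers summed to 64.5 to 99.4 FPKM in BMC+LIPUS, 78.0 to 101 FPKM in BMC and 126 to 147 FPKM in control, nearly all from Ighm, and their part in the low ligand and receptor counts was not tested.

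In all, 12 of the 27 members under the filter could be tested at 0.1 FPKM. In BMC+LIPUS against control 1 was called higher and 4 lower, where 34.4% of the 15324 genes were called, 16.6% higher and 17.8% lower. In BMC against control 1 was higher and 1 lower, where 28.2% of all genes were called, 13.2% higher and 15.1% lower. The higher call in both was Tnfrsf9, which passed this filter only through the groups where it was high, so these counts are a description. Between BMC+LIPUS and BMC none of the 12 was called by edgeR, where 0.176% of all genes were (0.117% higher and 0.0587% lower). Tnfrsf25 and Tnfrsf13c had an unadjusted p under 0.05 in edgeR (0.0491 and 0.0281). Tnfrsf13c passed this filter only through the BMC group, where it was highest, so its value is a description.

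The remaining death domain receptors were low or at 0. Fas, which triggers caspase activation when bound by its ligand, stood at 0.530 ± 0.0964 FPKM in BMC+LIPUS, 0.493 ± 0.218 FPKM in BMC and 0.480 ± 0.121 FPKM in control (SD, n = 3 each). It was not called, and its interval in BMC against control, -0.74 to 0.89 on the log2 scale, was wide at this depth. Tnfrsf10b, the mouse receptor for TRAIL, had 45, 40 and 29 counts in BMC+LIPUS, BMC and control, and Tnfrsf25, the receptor of Tnfsf15, had 31, 14 and 27. Ngfr and Tnfrsf21 had 0 counts in every library.

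The decoy-type receptors of the mouse TRAIL receptor cluster were well expressed. Tnfrsf22 and Tnfrsf23 bind TRAIL without a functional death domain, and Tnfrsf26 is a related receptor gene. These are related genes, so reads may be shared between them. Tnfrsf23 stood at 8.90, 8.91 and 8.01 FPKM in BMC+LIPUS, 7.50, 8.48 and 7.82 FPKM in BMC, and 6.76, 7.45 and 7.50 FPKM in control. It rose 1.25-fold in BMC+LIPUS against control (log2 change 0.32, SE 0.083, adjusted p = 0.00517), and the groups did not overlap. In BMC against control its log2 change was 0.20 (SE 0.083, adjusted p = 0.0757).

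Tnfrsf26 stood at 12.19, 10.07 and 14.53 FPKM in BMC+LIPUS, 9.93, 11.04 and 13.55 FPKM in BMC, and 10.26, 9.72 and 10.16 FPKM in control. Replicate 3 was the highest library in both membrane groups, and 1 BMC+LIPUS library lay inside the control range. It was called in BMC+LIPUS against control (1.29-fold, log2 change 0.36, SE 0.129, adjusted p = 0.0326), but the call held in 10 of 20 alternatives. Without BMC+LIPUS replicate 3 the log2 change was 0.21 (adjusted p = 0.207), and without any 1 of the controls or without BMC+LIPUS replicate 1 the call was lost as well, with adjusted p from 0.0637 to 0.0982. BMC against control gave no call for Tnfrsf26 (log2 change 0.26, adjusted p = 0.136), with 0.12 without BMC replicate 3 (adjusted p = 0.521) and 0.36 without BMC replicate 1 (adjusted p = 0.0414). Tnfrsf22, at 7.19 ± 0.545, 6.38 ± 0.612 and 6.87 ± 0.470 FPKM in BMC+LIPUS, BMC and control (SD, n = 3 each), was not called. Tnfsf10, TRAIL itself, had 0, 2 and 0 counts in BMC+LIPUS, BMC and control.

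Among the other TRAF-binding receptors, Tnfrsf12a, the TWEAK receptor, was at 8.61 ± 1.14 FPKM in BMC+LIPUS, 7.64 ± 0.959 FPKM in BMC and 7.69 ± 0.481 FPKM in control (SD, n = 3 each), with no call. Its 95% interval for BMC against control was -0.22 to 0.33 on the log2 scale. Tnfrsf14 (HVEM), which binds LIGHT and B and T cell inhibitory receptors, stood at 0.64, 0.38 and 0.20 FPKM in BMC+LIPUS, 0.55, 0.33 and 0.32 FPKM in BMC, and 0.58, 1.09 and 0.81 FPKM in control. Tnfrsf14 averaged 0.407, 0.400 and 0.827 FPKM in the same order, so it passed the filter only through the controls, where it was highest. Its differences from control are therefore a description. Its log2 change was -0.98 in BMC against control (SE 0.435, adjusted p = 0.09), where the groups did not overlap, and -0.93 in BMC+LIPUS against control (SE 0.432, adjusted p = 0.094). The BMC+LIPUS difference depended on single libraries, with log2 changes of -0.62 without BMC+LIPUS replicate 3 (adjusted p = 0.306), -0.68 without control replicate 2 (adjusted p = 0.32) and -1.44 without BMC+LIPUS replicate 1 (adjusted p = 0.0397). Tnfrsf4, the OX40 receptor of activated T cells, ranged from 0.20 to 0.79 FPKM and was not called.

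Cd40, through which T cells activate macrophages, had 42, 47 and 77 counts in BMC+LIPUS, BMC and control and was not called at the 0.1 FPKM filter (adjusted p = 0.215 and 0.346 for BMC+LIPUS and BMC against control). Cd27, a T and B cell costimulatory receptor, had 15, 17 and 25 counts in the same order. Of the 10 T and NK cell markers 6 had 0 counts throughout, and Lck alone passed the filter. The list summed to 2.14 to 2.85 FPKM in BMC+LIPUS, 1.94 to 2.69 FPKM in BMC and 0.860 to 1.04 FPKM in control. Lck alone made up nearly all of that sum (means of 2.47, 2.22 and 0.860 FPKM in the same order). The other markers on the list stayed under 0.1 FPKM in every library. The part of this list in the counts of Tnfrsf9 was not tested.

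Most ligands of the family were not detected at a usable level. Under the filter, 12 members had fewer than 10 counts in every library, namely Lta, Tnfsf14, Tnfsfm13, Tnfsf10, Tnfsf15, Tnfsf18, Tnfsf4, Tnfsf8, Fasl, Cd70, Tnfrsf13c and Tnfrsf18. A further 6 had 0 counts in all 9 libraries, namely Cd40lg, Tnfsf11 (RANKL), Ngfr, Tnfrsf11b (osteoprotegerin), Tnfrsf19 and Tnfrsf21. A count of 0 allows up to 0.0720, 0.0723 and 0.0673 CPM in BMC+LIPUS, BMC and control. Of 24 known ligand and receptor pairs within the family, 2 had both partners above the filter, Ltb with Ltbr and Tnfsf12 with Tnfrsf12a. In 11 pairs 1 partner passed, and in the other 11 neither did.

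Summed over the family, ligand transcripts came to 79.9 ± 4.15 FPKM in BMC+LIPUS, 87.1 ± 4.19 FPKM in BMC and 57.9 ± 6.92 FPKM in control (SD, n = 3 each), nearly all from Tnfsf9 and Ltb. Receptor transcripts came to 130 ± 4.96, 119 ± 1.48 and 121 ± 3.26 FPKM in the same order. These sums were not tested.

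**Figure D4:**
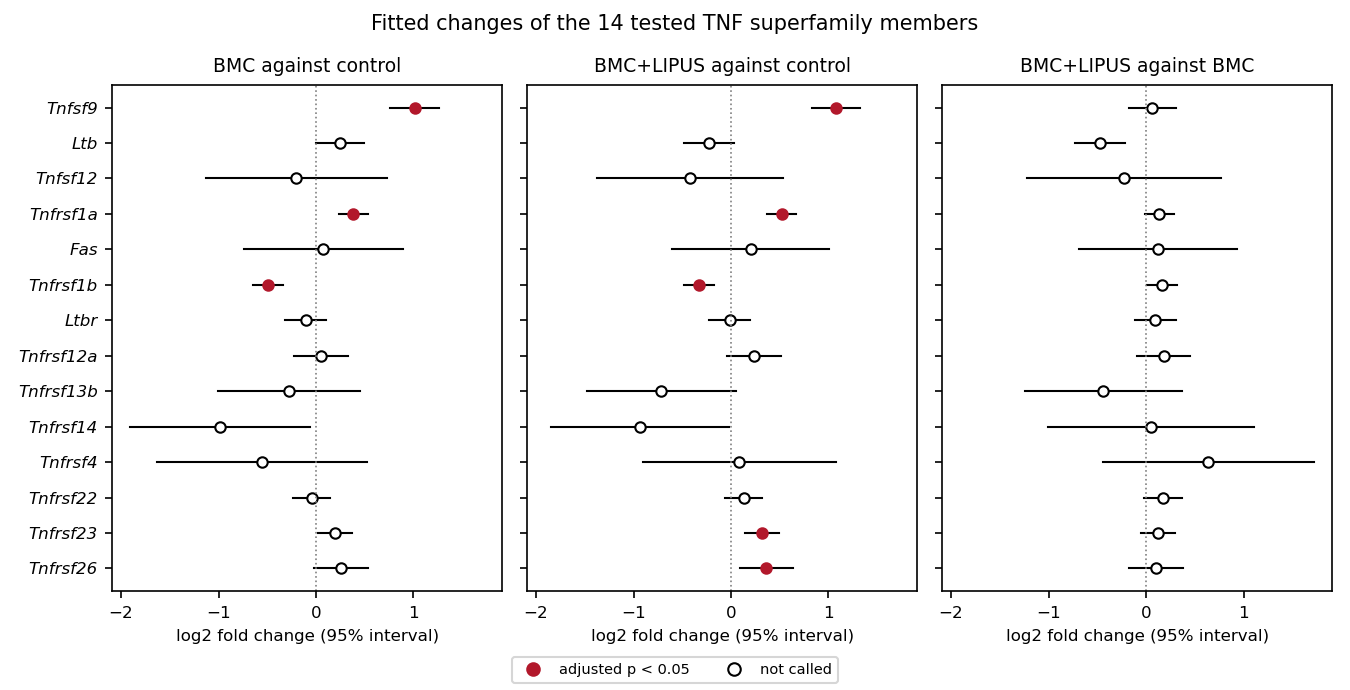
Fitted log2 fold changes (horizontal axis) of the 14 tested members, ligands at the top and receptors below, in 3 panels for BMC against control, BMC+LIPUS against control and BMC+LIPUS against BMC. Points are edgeR estimates, filled where the adjusted p was under 0.05, and lines are 95% intervals; 3, 5 and 0 points are filled.

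Over the 14 tested members the median log2 change was 0.01 in BMC against control, 0.11 in BMC+LIPUS against control and 0.11 in BMC+LIPUS against BMC, where the medians over all genes were 0.01, 0.01 and 0. By counts over library totals, groups were fully apart in 5 of 14 members in BMC against control, among them Tnfrsf14, which passed the filter only through the controls. Another of the 5 was Tnfrsf23, whose FPKM met at 7.50 in BMC replicate 1 and control replicate 3. The groups were fully apart in 5 members in BMC+LIPUS against control and in 1, Ltb, in BMC+LIPUS against BMC. For all genes these shares were 46.7%, 51.2% and 16.0%. Between BMC+LIPUS and BMC edgeR called 0.108% of all genes. Of the members 2 of 14, Ltb and Tnfrsf1b, had an unadjusted p under 0.05, where 11.5% of all genes did, while DESeq2 called 1 of 14 and limma on log2(FPKM + 1) called 0. For the 9 members above 5 FPKM, the 95% intervals of the log2 change with ultrasound lay between -0.72 for Ltb and 0.46 for Tnfrsf12a, while the intervals of the 5 low members reached from -1.24 for Tnfrsf13b to 1.73 for Tnfrsf4.

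Genes that process the ligands or carry receptor signals were taken from lists that do not overlap the family. These lists were chosen with earlier results of these data known, so their counts are a description. Of 5 ligand processing genes 4 rose in BMC against control and 0 fell, with 1 not called, and 4 rose and 0 fell in BMC+LIPUS against control, where limma called 3. Of all genes 17.2% and 21.1% were called higher in these comparisons. The median log2 change of the list was 0.42 and 0.52 in these comparisons. Rhbdf2, which escorts the TNF-shedding protease ADAM17 to the cell surface, rose 1.77-fold in BMC (14.6 ± 1.14 FPKM in BMC and 8.67 ± 1.80 FPKM in control, SD, n = 3 each, adjusted p = 3.41e-05), and Furin, a protease that cleaves BAFF, APRIL and TWEAK, rose 1.42-fold (adjusted p = 0.00208). Of 32 adaptors, kinases and death signalling genes 10 rose and 5 fell in BMC against control, and 12 rose and 6 fell in BMC+LIPUS against control, with medians of 0.04 and 0.05. Of all genes 35.9% were called in BMC against control, 17.2% higher and 18.8% lower. In BMC+LIPUS against control 43.0% were called, 21.1% higher and 21.9% lower. By limma on log2(FPKM + 1) the list had 8 higher and 7 lower in BMC and 9 higher and 7 lower in BMC+LIPUS against control. The split moved over all 12012 genes as well. In BMC against control limma called 1332 higher and 2547 lower, where edgeR called 2065 and 2253. In BMC+LIPUS against control limma called 1741 higher and 3033 lower, where edgeR called 2529 and 2631. The adaptor Traf1 rose 3.40-fold in BMC (adjusted p = 3.59e-08) and 3.77-fold in BMC+LIPUS (adjusted p = 7.68e-09) against control. The stress kinase gene Map3k5 (ASK1) was 2.03-fold lower in BMC (adjusted p = 2.75e-06) and 2.06-fold lower in BMC+LIPUS (adjusted p = 1.46e-06) than in control.

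All 8 listed NF-kB subunit and inhibitor genes rose in both comparisons with control (7 of 8 in BMC+LIPUS against control by limma), where 17.2% of all genes were called higher in BMC and 21.1% in BMC+LIPUS, with a median log2 change of 0.55 in BMC and 0.56 in BMC+LIPUS. This list was also chosen with earlier results of these data known, so its counts are a description. Nfkb2, a subunit of the branch that several receptors of this family use, rose 1.65-fold in BMC (adjusted p = 2.11e-06) and 1.88-fold in BMC+LIPUS (adjusted p = 1.08e-07) against control. Of the other family receptors, Eda2r, which binds an ectodysplasin isoform, rose 1.84-fold in BMC (adjusted p = 0.00117) and 2.39-fold in BMC+LIPUS against control (adjusted p = 2.84e-05), while Relt was not called. Eda and Edar lay under the filter. In BMC+LIPUS against BMC edgeR called 0 of the 47 tested genes on these lists, where 0.108% of all genes were called. DESeq2 and limma also called 0 of the 47. Of the 47, 6 had an unadjusted p under 0.05 in edgeR, where 11.5% of all genes did.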

How the data were processed

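The tools named in the submitters' processing notes are DESeq2, HTSeq 0.6.1, HISAT2 2.0.1 and cutadapt 1.9.1, with build GRCm39. The authors deposited raw read counts and FPKM per gene for each library. The gene table also held 6 columns of 3 libraries without a sample label, which were not used. Lines without a gene name (0.0889% to 0.0976% of counts) were left out. For 77 names on more than 1 line, only the line with the highest mean count was kept. The deposited counts were tested with edgeR 4.0.16 in R 4.3.3 (TMM scaling, quasi-likelihood F test) over all 9 libraries with group as the only term, for genes averaging 0.5 FPKM or more, and p-values were adjusted by the Benjamini-Hochberg method. The deposited FPKM served for levels, for the filter and for comparing genes with each other. Intervals are 95%, and a count of 0 was bounded by 3 counts over the group. Replicate libraries differed by 3.40 to 9.55 times the sampling variance, so none was a copy. Steps were tested on simulated data. Alternatives were DESeq2 1.42.0, limma 3.58.1 on log2(FPKM + 1) and log2(FPKM + 0.1), scaling by library totals, other filters, only the 6 libraries compared, replicate blocks and leaving out each library. The 0.1 FPKM filter and the receptor ratio were added after seeing the data. The members and lists were chosen with earlier results of these data known. Every member is reported, pathway genes named are those with the smallest p of each list, and promoters come from RefSeq (GRCm38.p6), where 31 of 41 members matched.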

Additional observations from a re-analysis of the deposited data

How the results depend on the processing

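The calls of Tnfsf9, Tnfrsf1a and Tnfrsf1b against control, in both membrane groups, and of Tnfrsf23 in BMC+LIPUS against control held in 20 of 20 alternatives each. With no filter, 4 of the same 14 members in place of 2 were called higher in BMC against control. Of the members under the filter, Tnfrsf8 was then called lower as well (adjusted p = 0.00043). Tnfrsf9, with 0 counts in each control, entered that fit only through the membrane libraries, so its value there is not given as a test. In BMC+LIPUS against BMC 1 member, Ltb, in place of 0 was called lower with DESeq2, with no filter and with the replicate block by description numbers, and the cause was not tested. Leaving out single libraries gave 2 to 3 higher and 1 lower call in BMC against control, 3 to 4 higher and 1 to 2 lower in BMC+LIPUS against control, and 0 in BMC+LIPUS against BMC. Tnfrsf26 in BMC+LIPUS against control lost its call in 10 of 20 alternatives (log2 change 0.21 to 0.49).

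The log2 changes that turned sign were all uncalled, and the cause was not tested. In BMC against control they were Fas with limma at + 0.1 (-0.011) and with the description block (-0.086), Tnfrsf12a with limma (-0.013 at + 1 and -0.015 at + 0.1), library totals (-0.01) and the description block (-0.04), and Tnfrsf13b with that block (0.037). Tnfrsf4 turned with it in BMC+LIPUS against control (-0.465), and Tnfrsf14 in BMC+LIPUS against BMC with limma (-0.001 at + 1 and -0.047 at + 0.1). Leaving out single libraries moved BMC against control to -0.318 to 0.347 for Fas, -0.055 to 0.13 for Tnfrsf12a, -0.113 to 0.006 for Tnfrsf22 and -0.679 to 0.136 for Tnfsf12. It moved BMC+LIPUS against control to -0.092 to 0.073 for Ltbr and -0.299 to 0.433 for Tnfrsf4. It moved BMC+LIPUS against BMC to -0.147 to 0.517 for Fas, -0.662 to 0.067 for Tnfrsf13b, -0.454 to 0.361 for Tnfrsf14, -0.048 to 0.243 for Tnfrsf26, -0.561 to 0.253 for Tnfsf12 and -0.011 to 0.154 for Tnfsf9.

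Whether replicate numbers pair the libraries was not settled. Deviations of same-numbered libraries from their group means correlated at -0.149 to 0.372, the highest for replicate 3 of BMC+LIPUS with replicate 3 of BMC. Differently numbered libraries were not compared. With the replicate block by title numbers, 4496, 5312 and 51 genes were called in BMC against control, BMC+LIPUS against control and BMC+LIPUS against BMC, where 4318, 5160 and 13 were called without it. The block by description numbers gave 3190, 4125 and 52. In BMC+LIPUS against BMC DESeq2 called 77 genes, limma 0 at + 1 and 1 at + 0.1, no filter 236, a minimum of 5 FPKM 8 and the 6 libraries alone 2. Library totals gave 1459 higher and 2762 lower genes in BMC against control, where TMM gave 2065 and 2253, and limma at + 1 gave 1332 and 2547. In BMC+LIPUS against control these were 1869 and 3204, 2529 and 2631, and 1741 and 3033. Members under 10 counts per library could show only large differences at this depth.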
